A study of Mus musculus with 2 samples.

Results

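The melanoma cells described here are tumour cells found inside libraries that were sorted for white blood cells. They were chosen by measured values: a cell barcode counted as a melanoma cell when it held at least 200 genes, under 10% mitochondrial UMIs (unique molecular identifiers, 1 per captured RNA molecule), at least 5000 UMIs and at least 0.5% of its UMIs in the 5 pigment genes Pmel, Mlana, Dct, Tyr and Tyrp1. Of 20012 barcodes in the series, 261 met the rule, 14 of the 9130 in the FDPS-knockout library and 247 of the 10882 from control tumours. Almost all of what follows therefore describes the control library, with its immune cells for comparison, and the 14 cells of the knockout library are given as counts and single values at the end.

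Both groups were subcutaneous tumours of B16-F10, a pigmented mouse melanoma line. The tumours were taken 14 days after injection, digested with collagenase D and DNase I, and sorted for live cells carrying CD45, the surface protein that Ptprc encodes on white blood cells. In the knockout arm the tumour line was FDPS-knockout (KO), lacking the mevalonate-pathway enzyme farnesyl diphosphate synthase; in the control arm its genotype was labelled WT. Each arm had 3 tumours and 1 10x library, with no map from cells to tumours, so cells are not replicates and the comparison between arms is of 2 libraries, not of conditions. No test and no p-value was possible; intervals are 95% exact and cover counting error only, and "2-fold" is a size, not a significance. Strain, age and sex of the hosts, whether the knockout line was 1 clone, and the edited site in Fdps are not given in the sources used here.

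B16 cells descend from melanocytes, the neural-crest-derived cells that make melanin. Melanin is made in melanosomes: PMEL forms the fibrils on which pigment is laid down, the enzymes TYR, TYRP1 and DCT make it from tyrosine, and MLANA is needed for PMEL to mature. The transcription factor MITF, itself held up by SOX10 and PAX3, binds the promoters of these genes at an extended E-box called the M-box, and the receptor MC1R raises its level through cyclic AMP. CD45 marks blood cells and not melanocytes, and MHC class I, MHC class II and interferon-stimulated genes are inducible in them by interferons.

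Of the 5 genes of the rule, 3 (Dct, Tyr and Tyrp1) had a promoter in the RefSeq table of GRCm38.p6; Pmel and Mlana are named only. The 250 bases before the start of each follow, 5′ to 3′ on the gene's strand, because the genes that define these cells share a sequence there. Capitals mark matches to the M-box core TCATGTG on either strand (CACATGA is the same site read on the other strand).
Dct, chr14:118052247-118052496, minus strand: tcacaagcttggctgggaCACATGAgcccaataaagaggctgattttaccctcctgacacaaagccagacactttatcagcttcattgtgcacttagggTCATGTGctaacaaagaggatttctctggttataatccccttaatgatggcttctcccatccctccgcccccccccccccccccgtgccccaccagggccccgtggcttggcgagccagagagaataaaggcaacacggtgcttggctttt
Tyr, chr7:87493513-87493762, minus strand: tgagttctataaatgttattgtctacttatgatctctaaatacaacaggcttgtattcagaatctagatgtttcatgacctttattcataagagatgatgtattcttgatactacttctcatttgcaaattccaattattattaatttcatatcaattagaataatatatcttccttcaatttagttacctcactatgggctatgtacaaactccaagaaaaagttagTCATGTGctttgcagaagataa
Tyrp1, chr4:80833963-80834212, plus strand: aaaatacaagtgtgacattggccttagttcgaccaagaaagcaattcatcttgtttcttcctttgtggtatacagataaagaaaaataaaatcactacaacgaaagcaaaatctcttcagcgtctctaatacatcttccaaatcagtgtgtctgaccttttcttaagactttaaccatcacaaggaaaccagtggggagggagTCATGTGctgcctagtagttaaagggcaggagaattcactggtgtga
All 3 windows held the core. Its first base lay 232 and 151 bases before the start in Dct, the first of these on the opposite strand, 22 bases before it in Tyr and 47 bases before it in Tyrp1. Of 32851 promoter windows of the same length, 1068 (3.25%) held TCATGTG and 1978 (6.02%) held the palindromic E-box CACGTG, which none of the 3 did; the 2 motifs cannot overlap in full, since they differ in their centre. A match of letters is a description and does not show that MITF was bound.

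The knockout library held 127186298 UMIs and the control library 208936136, and the gene, mitochondrial and depth limits left 7180 and 7569 barcodes. Immune cells were barcodes within the same limits with under 0.1% pigment UMIs and at least 1 Ptprc UMI, numbering 7140 in the knockout library against 7154 in the control. Among them, T-gated cells (at least 3 UMIs of Cd3d, Cd3e and Cd3g and none of C1qa, C1qb and C1qc) numbered 3300 and 378, and macrophage-gated cells (at least 5 C1q UMIs and no Cd3 UMI) 485 and 2304. The libraries had 30 barcode sequences in common, of which 0 belonged to knockout-library melanoma cells and 2 to control-library ones. A doublet caller, Scrublet, marked 0 of the 14 and 57 of the 247 melanoma cells. Over all barcodes it scored, it marked 635 of 8697 in the knockout library and 820 of 9415 in the control library.

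Melanoma cells made up 0.195% of the barcodes within limits in the knockout library (14 of 7180, interval 0.107 to 0.327%) and 3.26% in the control library (247 of 7569, 2.87 to 3.69%). The sort and the number of cells loaded can set these shares, which do not measure how many tumour cells a tumour held. The pigment share was 0.995, 1.78 and 3.89% at the lowest, median and highest of the 14 cells, and 0.504, 1.44 and 3.91% in the 247, against a median of 0.0116% in the immune cells of the control library. In the knockout library the nearest values inside the threshold were 0.995, 1.07 and 1.11% and the nearest outside 0.0638, 0.0544 and 0.0518%, with no barcode between 0.1 and 0.5%. In the control library they were 0.504, 0.504 and 0.520% inside and 0.481, 0.427 and 0.393% outside, and 61 barcodes lay between 0.1 and 0.5%. Those 61 had a median of 7916 UMIs and 0.431% of UMIs in 15 pan-leukocyte genes, and 42 of them carried a Ptprc UMI.

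**Figure D1:**
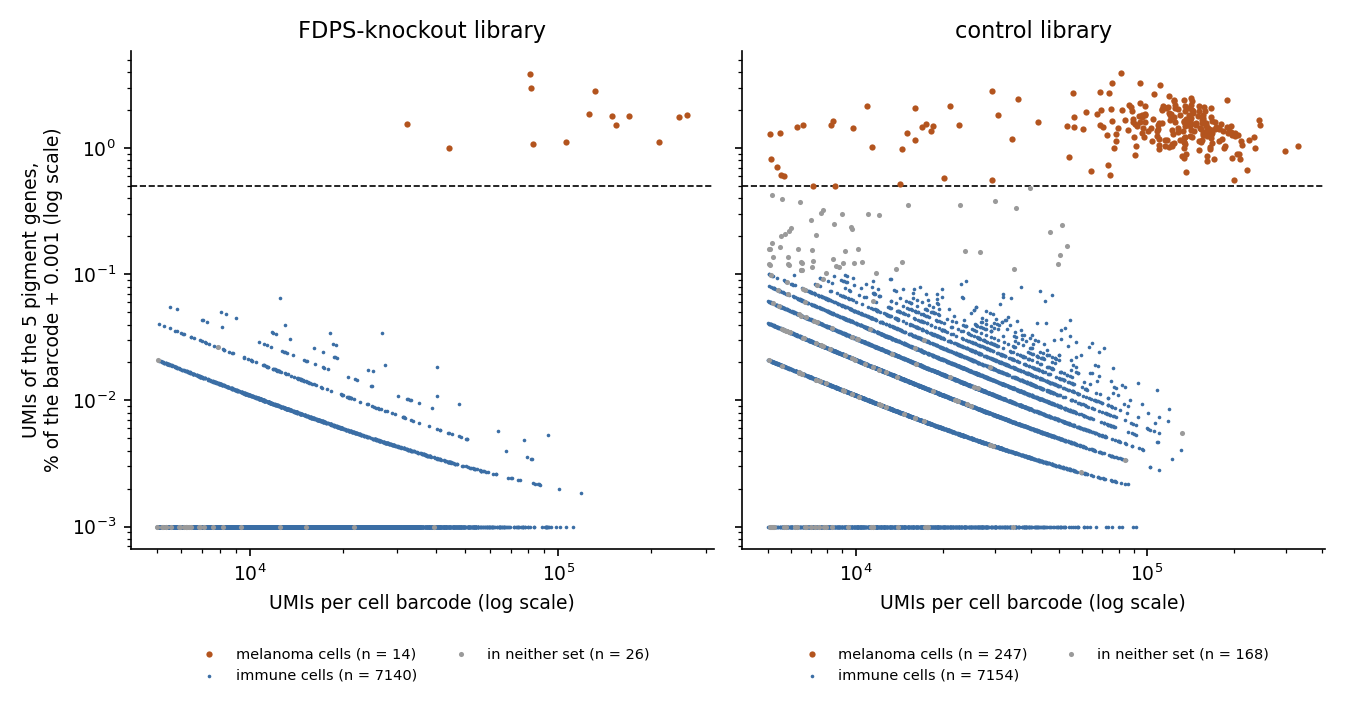
Share of UMIs in the 5 pigment genes (vertical axis, % plus 0.001, log scale) against UMIs per barcode (horizontal axis, log scale) in the FDPS-knockout and control libraries; each point is 1 barcode within the limits and the dashed line marks 0.5%. The 14 and 247 melanoma cells lie mostly to the right of the immune cells, and 61 control-library barcodes lie between 0.1 and 0.5%.

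Within the limit of 5000 UMIs, the melanoma cells held far more UMIs than the immune cells beside them. In the control library they held 5072, 124936 and 331696 UMIs at the lowest, median and highest, against 5001, 17698 and 130781 in immune cells, and a median of 9282 genes against 4239. When every cell was thinned to 5000 UMIs, the medians were 2273 genes in melanoma cells and 2134 in immune cells. Mitochondrial UMIs were 3.63% in the median melanoma cell and 2.60% in the median immune cell.

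The pigment genes chose these cells, so their levels are a description. Dct, the tautomerase of the melanin pathway (ENSMUSG00000022129, chr14:118012790-118052244), reached 2229, 7682 and 24603 CPM (UMIs per 1000000) in the lowest, median and highest melanoma cell, and over the summed cells 7951 CPM, against 58.7 in immune cells. It was the most abundant non-mitochondrial RNA in them, ahead of the ribosomal-protein RNA Rpl32 at 7283 CPM. Pmel was summed to 2864 CPM against 24.5, Tyrp1 to 1993 against 21.0, Mlana to 1463 against 12.8 and Tyr, which makes the first step of melanin, to 591 against 4.31. No immune cell exceeded the median melanoma cell in any of the 5. For Dct, Pmel, Tyrp1 and Mlana the limit on pigment UMIs in immune cells fixes this outcome, since it lies below each of these medians. Only for Tyr, whose median lies below the limit, could an immune cell have exceeded it. The level per cell of the sparsest, Tyr, ran from 0 through 528 to 2774 CPM, and 244 of the 247 cells had a Tyr UMI.

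Many melanosome genes that the rule did not use were higher too. Levels were compared as log2 of CPM plus 5, melanoma over immune, for the 9246 genes whose mean over both sets reached 10 CPM; 14.6% of them were at least 2-fold higher in melanoma cells and 17.3% at least 2-fold lower, with a median over all genes of 0.08. Of 22 other melanosome genes 13 were 2-fold higher, 0 lower and 9 within 2-fold, with a median of 2.54. Slc45a2, a melanosomal transporter (chr15:11000721-11029233), had 0, 494 and 1581 CPM in the lowest, median and highest melanoma cell; its sum was 506 CPM against 3.92 in immune cells, 129-fold (119 to 140), and 0 of 7154 immune cells passed the melanoma median. Oca2, which sets melanosome pH, had 215 against 1.0 CPM; Rab38, which carries pigment enzymes to the melanosome, 410 against 4.26; Slc24a5, an ion exchanger, 575 against 13.1; and Trpm1, a channel whose intron hosts a melanocyte microRNA, 308 against 4.81. Gpnmb, a PMEL relative that macrophages also make, had 1314 CPM against 120 in all immune cells and 196 in macrophage-gated ones. The cystine transporter Slc7a11 was at 7.03 CPM against 18.4, short of 2-fold on this scale.

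The regulators of the lineage were present together. Of 14 listed, 8 were measured, 7 were 2-fold higher and 1 lower, with a median of 3.66. Pax3 (chr1:78101267-78197134) stood at 415 CPM against 2.04, 203-fold (182 to 227), with 0, 372 and 4241 CPM in the lowest, median and highest melanoma cell and no immune cell above that median. Sox10 stood at 187 against 1.71, 109-fold (96.8 to 124), and 243 of 247 cells had a UMI. Mitf (chr6:97807052-98021349) was less separate: 694 CPM in melanoma cells against 201 in immune cells, where it was 9.43 in T-gated and 344 in macrophage-gated cells, and 952 immune cells lay above the melanoma median of 566. The receptors Mc1r, at 73.3 against 1.01 CPM, and Met, the receptor of hepatocyte growth factor, at 496 against 21.0, were higher, as was the repressor Tbx2 at 69.9 against 1.09. Lef1 was the one listed gene that was lower, 0.439 against 23.6 CPM, and it stood at 90.9 CPM in T-gated cells.

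Some genes listed for Schwann and glial cells, a neighbouring branch of the neural crest, were also higher in these cells than in immune cells. Of 6 measured, 4 were 2-fold higher and 2 within 2-fold. Among the 4 was Sox10 itself, also counted with the lineage regulators above. The cadherin Cdh19 had 125 CPM against 0.772 and S100b 107 against 1.48. Whether they mark a Schwann or glial state was not tested. Genes of dedifferentiated, neural-crest-like melanoma were mostly too low to compare. Summed, the 15 had 161 CPM in melanoma cells against 365 in immune cells. Of the 15, only 3 reached the level needed, 2 of them lower and 1 within 2-fold. The lower ones were Zeb1, at 2.94 against 91.9 CPM, and Axl, a receptor kinase, at 23.5 against 64.2. Ngfr, Wnt5a, Egfr, Twist1 and Sox2 had 0 UMIs among the 29584958 of these cells; a count of 0 allows up to 0.101 CPM. Axl was higher than in T-gated cells, by 0.61 on the log2 scale, and lower than in macrophage-gated ones.

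**Figure D2:**
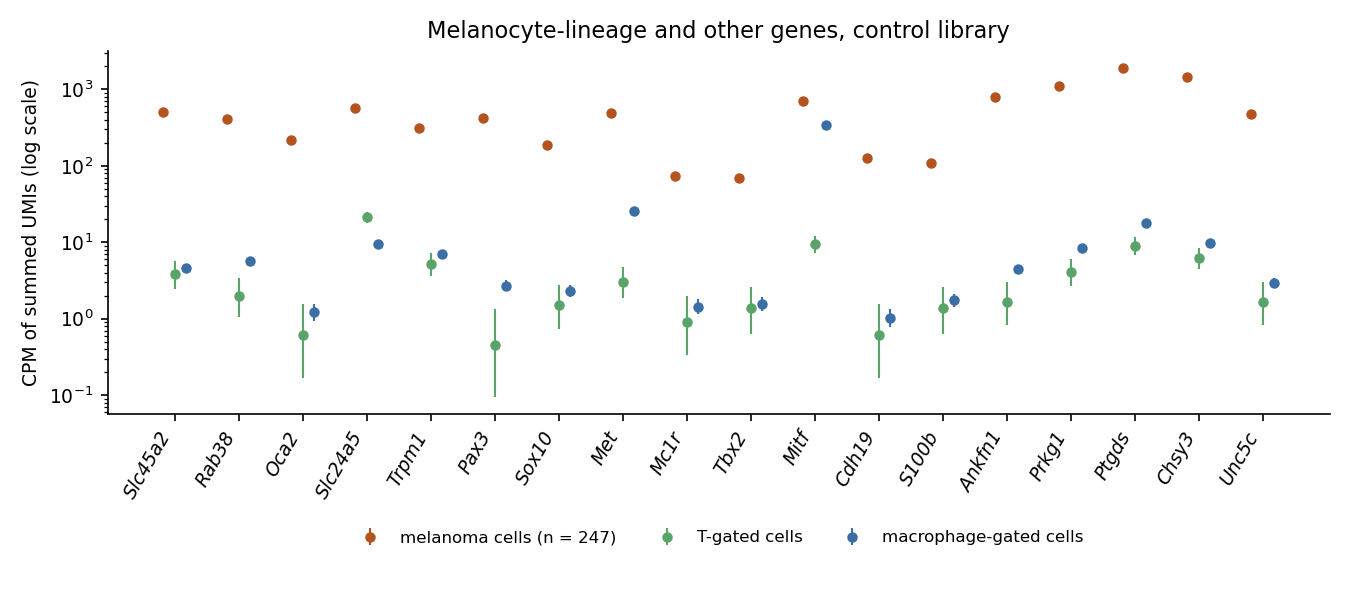
CPM of summed UMIs (log scale) of 18 genes in melanoma, T-gated and macrophage-gated cells of the control library; points are sums and bars 95% exact Poisson intervals, smaller than most points. Melanoma cells are the highest for every gene, and Mitf, at 694, 9.43 and 344 CPM, comes closest to the macrophage-gated level.

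The genes outside the lists with the highest ratios were of many kinds. Prkg1, a kinase activated by cyclic GMP (chr19:30564489-31765033), had 0, 851 and 14877 CPM in the lowest, median and highest melanoma cell and 1092 CPM summed, against 6.32 in immune cells. Ankfn1 had 792 against 3.03 CPM, 261-fold (239 to 286), and Unc5c, a netrin receptor, 479 against 2.12. Ptgds, which makes prostaglandin D2, stood at 1926 CPM against 15.2, and Chsy3, a chondroitin sulphate synthase, at 1451 against 11.2. Ppargc1a, a coactivator that raises mitochondrial biogenesis, had 355 CPM against 2.29; Cited1, a transcriptional coregulator, 650 against 6.97; and Meis2, a homeobox factor, 437 against 1.96. Syt4, Pde10a, Stox2, Bnc2, Grik2 and the unnamed gene Gm41335 were also among the 15 highest, between 298 and 773 CPM. The 5 with the lowest ratios were leukocyte genes: the chemokines Ccl4, 20.2 against 758 CPM, and Ccl6, Plac8, Pid1 and the granule proteoglycan gene Srgn. Ccl6 and Pid1 were low in T-gated cells too, so the melanoma level was 0.12 and 0.17 above T-gated cells on the log2 scale.

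CD45 RNA was scarce in the melanoma cells, although the sort selected its protein. Ptprc (chr1:138062861-138175708) had 0, 0 and 305 CPM in the lowest, median and highest melanoma cell and 24.7 CPM summed, against 818 in immune cells. At 5000 UMIs a cell, 19 of 247 melanoma cells (7.69%, 4.69 to 11.8) had a Ptprc UMI, against 99.2% of T-gated and 90.1% of macrophage-gated cells; without thinning the melanoma share was 47.4%. Immune cells were required to hold a Ptprc UMI, so their level and shares are partly fixed by that choice. The melanoma share was 2.75% in the 218 cells with under 0.1% of UMIs in the pan-leukocyte genes, a list that holds Ptprc, and 3.16% without the cells Scrublet marked. Of those 57 marked cells, 23 were among the 29 with at least 0.1%.

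Leukocyte RNA of every kind came to a similar small percentage of its immune level. The median over 14 pan-leukocyte genes was 4.03% of the immune CPM, over 13 T and NK genes 4.23% and over 14 myeloid genes 4.12%. Xist, which the immune cells carried at 877 CPM, stood at 32.0 CPM in melanoma cells, 3.65%. In the 218 cells low in leukocyte genes, which were chosen by the pan-leukocyte list itself, the same medians were 1.32, 1.04 and 1.27%, and Xist was at 1.06%. Above 6% in these lists were Arhgdib at 361 against 471 CPM, Apoe, a lipid carrier, at 1109 against 985, the phosphatase gene Ptpn6 at 16% of its immune level, the tetraspanin gene Cd37 at 8.63% and Prf1, the gene of perforin, at 6.15%. Markers of other cells were scarce. Of 10 fibroblast genes 0 were measured, of 10 erythroid and keratinocyte genes 1 (Hbb-bs, 0.946 against 41.4 CPM), and the 5 measured of B cells and neutrophils were all lower, at a median of 4.88% of the immune level. Of 4 endothelial genes measured, Eng (103 against 25.6 CPM) and Egfl7 (20.9 against 2.05) were higher, while the defining endothelial genes Cdh5 and Cldn5 had 0 UMIs and Pecam1 1.32 against 39.5 CPM.

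MHC class II genes lay above that line and below the immune cells. All 7 were between 13.1 and 59.8% of their immune level, median 19.3%, and in the 218 cells low in leukocyte genes the median was 16.5%. Cd74, the invariant chain (chr18:60803848-60812652), had 0, 412 and 4653 CPM in the lowest, median and highest melanoma cell and 632 CPM summed, against 2956 in immune cells, 192 in T-gated and 3799 in macrophage-gated ones. H2-Aa stood at 268 against 1386 CPM, H2-Ab1 at 167 against 1271, H2-Eb1 at 159 against 1214, and the peptide editor H2-DMb1 at 95 against 159. Ciita, the master regulator of the class, had 12.6 against 83.1 CPM. Against T-gated cells 6 of the 7 were measured, with a median of 1.48, higher in melanoma cells.

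Ratios between some of these RNAs differed from those in macrophage-gated cells. There were 11.0 Cd74 UMIs per UMI of the macrophage gene Lyz2 in melanoma cells, against 1.91 in immune and 1.64 in macrophage-gated cells. The ratio was 29.1 in melanoma cells low in leukocyte genes, a choice that can itself lower Lyz2. H2-DMb1 per Cd74 was 0.150, against 0.0537 in immune and 0.0572 in macrophage-gated cells. At 5000 UMIs a cell, 75.7% of melanoma cells (69.9 to 80.9) had a Cd74 UMI, against 38.9% of T-gated and 93.1% of macrophage-gated cells. Dendritic and B cells were not gated apart, and the source of the class II RNA in melanoma cells was not tested.

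**Figure D3:**
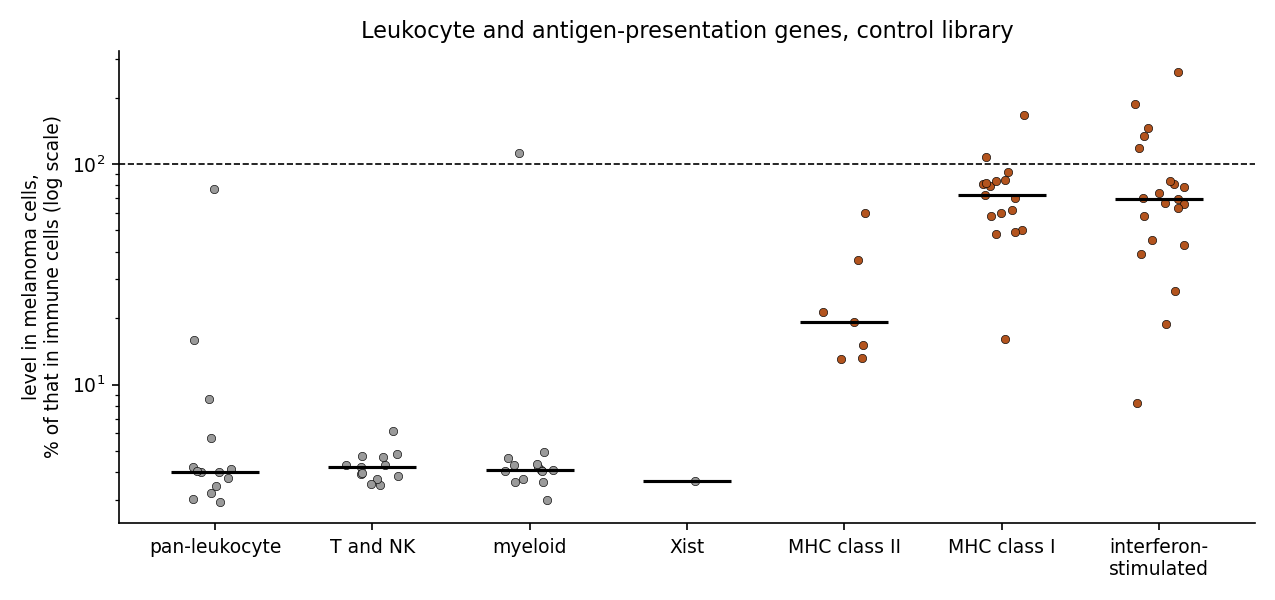
Level in melanoma cells as % of that in immune cells of the control library (log scale); each point is 1 gene, bars are list medians and the dashed line marks 100%. Pan-leukocyte, T and NK, and myeloid genes and Xist lie near 4%, with medians of 4.03, 4.23 and 4.12%, class II at 19.3%, class I at 72.8% and interferon-stimulated genes at 69.5%.

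MHC class I genes came close to the level of immune cells. The median of 17 was 72.8% of it; 0 were 2-fold higher and 2 lower. B2m, the light chain shared by all class I molecules, had 152, 2758 and 6086 CPM in the lowest, median and highest melanoma cell, and 2860 CPM summed against 3538; the cells overlapped widely. H2-D1 stood at 1105 against 1835 CPM, H2-K1, the other heavy chain, at 810 against 1688, and the immunoproteasome subunit gene Psmb8 at 116 against 725. Of 21 interferon-stimulated genes 1 was higher and 6 lower, median 69.5% of the immune level. Bst2, which tethers viruses, was the higher one, 1164 against 446 CPM. Ifitm3, an antiviral membrane protein, stood at 1885 against 1411, Isg15, a ubiquitin-like modifier, at 420 against 641 and Cxcl10, the CXCR3 ligand, at 257 against 402. Irf7 (41.9 against 224), Oasl1 (11.4 against 138) and Ifit2 (65.4 against 247) were lower, although all 3 were above T-gated cells, by 0.01, 0.73 and 0.87 on the log2 scale. Against T-gated cells, where 18.2% of all genes were higher and 15.7% lower, 10 of 20 interferon-stimulated genes were higher and 0 lower, median 0.97. Against macrophage-gated cells, where 1581 of 9044 genes were lower, 0 of 21 were higher and 10 lower, median −0.94.

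Checkpoint ligands and cytokines were more often below than above the level of all immune cells. Of 10 measured checkpoint, costimulatory and phagocytosis ligands 0 were higher and 7 lower. Cd274, the gene of PD-L1, had 0, 51.1 and 814 CPM in the lowest, median and highest melanoma cell and 76.1 CPM summed, against 324; the T-gated level was 62.3 and the macrophage-gated 473. Cd47, the signal that stops phagocytes, stood at 124 against 448 CPM, and the costimulatory Cd86 at 6.15 against 176, Cd80 at 2.33 against 55.2 and Pdcd1lg2 at 0.845 against 35.5. Cd86, Cd80 and Pdcd1lg2 were at 3.50, 4.22 and 2.38% of their immune level, near or below that of leukocyte RNA in these cells. Of the 10 ligands, 4 were under 6% of their immune level and 6 above it. Of 15 measured cytokines and growth factors 2 were higher and 8 lower. Vegfb had 119 against 16.7 CPM; Mif, a macrophage migration factor, was short of 2-fold on this scale at 2145 against 1105. Ccl2 (32.5 against 797), Ccl5 (49.4 against 889), Cxcl9 (24.0 against 454) and Tnf (1.89 against 78.7) were lower. They stood at 4.07, 5.56, 5.28 and 2.41% of their immune level, near or below that of leukocyte RNA in these cells. Ccl2 and Cxcl9 were above T-gated cells by 0.40 and 1.26. Of the 15 cytokines and growth factors, 6 were under 6% of their immune level and 9 above it. Against T-gated cells, where 18.2% of all genes were higher and 15.7% lower, 6 of 13 measured cytokines and growth factors were higher and 5 lower, with a median of 0.40. Of 13 nucleic-acid sensing genes 0 were higher and 4 lower, among them Samhd1, which degrades nucleotides, at 76.0 against 499 CPM.

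Many sterol genes and some respiratory-chain genes were higher in melanoma cells. Of 22 measured mevalonate and sterol genes 12 were 2-fold higher and 0 lower, median 1.03. Fdps (chr3:89093588-89101959), the enzyme of farnesyl diphosphate, had 0, 301 and 2464 CPM in the lowest, median and highest melanoma cell and 385 CPM summed, against 67.1 in immune cells, 5.74-fold (5.59 to 5.89); 249 immune cells exceeded the melanoma median. Sqle, which oxidizes squalene, had 83.0 against 20.3 CPM, Msmo1 113 against 30.3, Acat2 32.3 against 7.94 and Dhcr7 34.4 against 9.0. Ggps1, which uses the product of FDPS, had 35.3 against 31.9. Of 19 respiratory-chain subunits 6 were higher, 0 lower and 13 within 2-fold; Ndufa4 had 1526 against 299 CPM and no immune cell above the melanoma median of 1446.

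Of 21 measured glycolysis and hypoxia genes 7 were higher and 4 lower. Car9, the carbonic anhydrase of hypoxic cells, had 0, 32.8 and 755 CPM in the lowest, median and highest melanoma cell and 100.3 CPM summed, against 5.29. Pgk1 (2198 against 642), Tpi1 (1979 against 725) and Gapdh (6062 against 2645) were higher, and the lactate exporter Slc16a3 (6.90 against 114) and the oxygen sensor Egln3 (1.28 against 42.3) lower. Targets of hypoxia were thus found on both sides.

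The share of melanoma cells with RNA of dividing cells lay near that of T-gated cells. At 5000 UMIs a cell, 127 of 247 melanoma cells (51.4%, 45.0 to 57.8) had a Mki67 or Top2a UMI, against 51.6% of T-gated, 29.2% of macrophage-gated and 36.1% of all immune cells; without thinning the melanoma share was 87.9%. Mki67 had 0, 34.0 and 1261 CPM in the lowest, median and highest melanoma cell. Of 20 G2 and mitosis genes 0 were 2-fold apart, median 0.09, and of 19 S-phase genes 1 was higher. Cdkn2a, the tumour suppressor gene of the INK4a and ARF proteins (chr4:89274471-89294653), had 10 UMIs in 5 cells, 0.338 CPM, against 10.8 in immune and 22.7 in T-gated cells, and its neighbour Cdkn2b 1 UMI. Mtap, a neighbour of both, was present at 98.7 CPM against 29.9, and Klhl9, farther out, at 49.9 against 28.3. Trp53 stood at 74.2 against 75.9 CPM; of 12 p53 targets and inhibitors 2 were higher, among them Phlda3 at 97.0 against 5.11, and 2 lower, 1 of them Mdm2 at 43.5 against 135. Both counts lie near the shares over all genes, of which 14.6% were higher and 17.3% lower.

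Of 12 measured adhesion and matrix genes 2 were higher and 4 lower, beside 14.6% and 17.3% of all genes. Sparc, a matrix glycoprotein, had 0, 197 and 5056 CPM in the lowest, median and highest melanoma cell and 306 summed, against 6.31, and Cdh2, N-cadherin, 55.7 against 0.476. Alcam (49.7 against 394) and Thbs1 (7.64 against 112) were lower, although Thbs1 was 0.86 above T-gated cells on the log2 scale. Of 14 heat-shock and dissociation genes 1 was higher and 6 lower: Hsp90aa1, a chaperone, had 2080 against 649 CPM, and the stress-induced pair Hspa1a and Hspa1b 9.40 against 229 and 27.8 against 183; reads of that pair may be shared, since the genes are near copies.

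Within the control library, the melanoma cells were ranked by pigment share after leaving out the 29 rich in leukocyte genes, and the highest 54 cells (1.83 to 3.91%) were set against the lowest 54 (0.504 to 1.23%). Of 8594 genes 87 (1.01%) were 2-fold apart, 43 of them higher in the high-pigment cells and 44 lower. The ranking used the 5 pigment genes, so these differences are a description. The 21 other melanosome genes measured had a median of 0.54, with 6 higher, such as Oca2 at 339 against 113 CPM and Trpm1 at 444 against 174. Mitf (755 against 614) and Sox10 (179 against 197) were nearly level.

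Genes of division ran the other way. Of 20 G2 and mitosis genes 5 were lower in the high-pigment cells and 0 higher, median −0.87, and the S-phase genes had a median of −0.62; the median over all genes was −0.11. Mki67 stood at 73.7 CPM in the high-pigment cells and 186 in the low-pigment ones, and at 5000 UMIs 18 of 54 and 32 of 54 had a Mki67 or Top2a UMI. Scrublet marked 5 and 12 of them, median depths were 117614 and 132155 UMIs, and the part of these in the difference was not tested. Over the 218 cells Spearman's rank correlation between the summed melanosome and G2 and mitosis genes was −0.49, given as a description of cells of 1 library. Between the 5 pigment genes that set the ranking and G2 and mitosis genes it was weaker, −0.29. With UMIs per cell, melanosome genes had −0.05, the 5 pigment genes −0.11, G2 and mitosis genes 0.17 and S-phase genes 0.35.

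**Figure D4:**
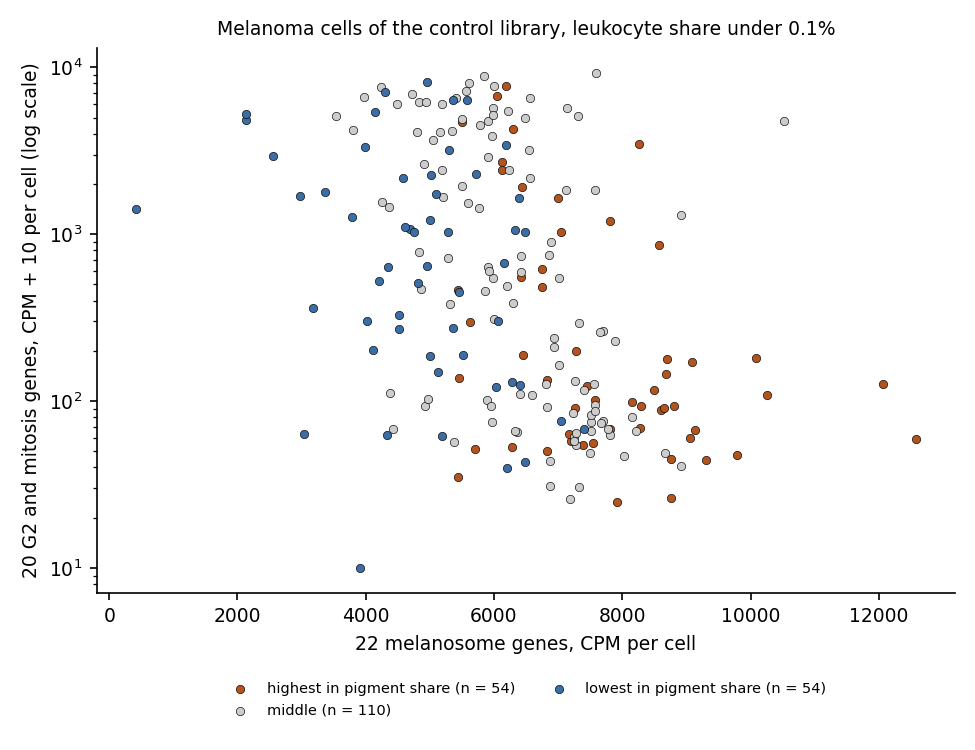
Summed G2 and mitosis genes (CPM plus 10, log scale) against summed melanosome genes (CPM) in the 218 control-library melanoma cells with under 0.1% leukocyte-gene UMIs; colours mark the 54 cells highest and the 54 lowest in pigment share and the 110 between. Cells above 8000 CPM of melanosome genes lie mostly low on the vertical axis, and the rank correlation is −0.49.

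Other genes set the high-pigment and low-pigment cells apart through few cells or many. Mgll, a lipase that breaks down monoacylglycerols, had 724 against 86.8 CPM, with UMIs in 51 of 54 and 39 of 54 cells. Kcnj13, a potassium channel, had 111 against 11.4, Cd72 33.3 against 6.58 and Hs3st1, a heparan sulphate sulphotransferase, 42.8 against 9.72. Cck, a peptide hormone, ranked first, but all 395 of its UMIs in the high-pigment cells came from 1 cell. Lower in the high-pigment cells were the cadherin Cdh13 (16.7 against 65.8), the factor Klf2 (16.7 against 61.3), Auts2 (4.95 against 23.9), Adam12 (26.3 against 76.4) and Gm42047 (72.7 against 209).

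Some of the inducible lists varied together from cell to cell. Across the 218 cells the rank correlation was 0.57 between the interferon-stimulated and class I lists, 0.52 between class I and class II, 0.59 between interferon-stimulated genes and checkpoint ligands, and 0.14 between interferon-stimulated genes and class II. Checkpoint ligands had 0.19 with class I and −0.05 with class II. Pan-leukocyte genes had 0.33 with class I and 0.34 with class II, and their part in the other values was not tested. S-phase and G2 and mitosis genes had one of 0.74. The lineage regulators had −0.45 with glycolysis and −0.43 with respiratory-chain genes. Points share a library and differ in depth; the rank correlation of a list with UMIs per cell reached 0.41, for the respiratory chain.

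The 14 melanoma cells of the knockout library carried 1876452 UMIs in all, with 32312, 128536 and 262038 at the lowest, median and highest. Pan-leukocyte genes were under 0.1% of UMIs in 12 of the 14 and in 218 of the 247. Mitochondrial UMIs were 7.06% in the median knockout-library cell and 3.63% in the median control-library one, and 5 of the 14 were under 5%. A cell with 32312 UMIs had 0.0279% mitochondrial UMIs and no Gapdh UMI.

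Fdps, the targeted gene, was found in 13 of the 14. It stood at 0, 68.8 and 312 CPM in the lowest, median and highest cell of the knockout library, against 0, 301 and 2464 in the control library; the ranges overlapped, and 13 of 14 cells were below the control median. Summed, it had 89.0 against 385 CPM, −2.05 on the log2 scale, and of 23 mevalonate and sterol genes it was the 1 that was 2-fold lower. It was also lower in the immune cells, which come from the host and not from the edited line: 25.8 against 69.2 CPM in T-gated and 24.3 against 43.3 in macrophage-gated cells. Each UMI is assigned to a gene as a whole, so the counts do not show which part of the transcript was captured. RNA of the library's other cells was present in these barcodes, and its part in the Fdps count was not tested.

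Of 8909 genes compared between the 14 and the 247 cells, 302 (3.39%) were 2-fold higher in the knockout library and 182 (2.04%) lower. Of the lineage genes, Dct had 8892 against 7951 CPM, Pmel 3398 against 2864, Tyr 1186 against 591, Mitf 1215 against 694 and Sox10 222 against 187, and of 21 other melanosome genes 1 was higher and 1 lower. Mitf was also higher in macrophage-gated cells of the knockout library, 570 against 344 CPM, and stood at 12.1 against 9.43 in T-gated ones. In melanoma cells Arfgef3 stood at 528 against 39.8 CPM, with UMIs in 14 of 14 cells, and Thsd7a at 428 against 54.9, also in all 14. Slc24a4, an ion exchanger, had 298 against 23.1, but 48.7% of its UMIs were in 1 cell. Spp1, the secreted osteopontin, had 197 against 15.8 CPM, in 9 of 14 cells; in macrophage-gated cells it ran the other way, 9.89 against 394. Cd74 stood at 1409 against 632 CPM and Ciita at 51.2 against 12.6; Cd74 was also higher in T-gated (382 against 192) and macrophage-gated cells (8468 against 3799).

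Glycolysis and hypoxia genes were the most one-sided list, 0 higher and 17 lower of 19. Gapdh had 0, 1315 and 2904 CPM in the lowest, median and highest knockout-library cell, against 0, 5059 and 15036 in the control library, and all 14 were below the control median. Car9 (3.73 against 100.3 CPM) and Bnip3, a mitophagy receptor induced by hypoxia (22.9 against 228), were lower too. The list was also lower in immune cells of the knockout library, with 13 of 19 genes in T-gated cells, where 1.21% of all genes were 2-fold lower, and 7 of 20 in macrophage-gated cells, where 4.43% were. Gapdh stood at 865 against 2242 CPM in T-gated and 807 against 2853 in macrophage-gated cells. Of 20 interferon-stimulated genes 2 were higher and 8 lower, Isg15 at 147 against 420 CPM. In macrophage-gated cells 0 of 21 were higher and 8 lower, Isg15 at 271 against 938, and in T-gated cells 0 of 19 were 2-fold apart, Isg15 at 52.0 against 104. Of 20 G2 and mitosis genes 9 were lower, and at 5000 UMIs 4 of 14 cells (28.6%, 8.39 to 58.1) had a Mki67 or Top2a UMI, against 127 of 247. In macrophage-gated cells 5 of 19 G2 and mitosis genes were lower, and in T-gated cells 0 of 20. The Mki67 or Top2a share was 16.1 against 29.2% in macrophage-gated and 36.4 against 51.6% in T-gated cells. Car6 (68.2 against 379) and Gm41335 (83.1 against 521) were lower as well in melanoma cells of the knockout library. Leukocyte genes also differed between the melanoma cells of the libraries: of 11 myeloid genes 0 were higher and 5 lower, with C1qa, a complement gene of macrophages, at 1.6 against 69.8 CPM, and of 4 T and NK genes 3 were lower. The part of leukocyte RNA in the other ratios was not tested.

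The direction of these ratios also followed gene length on the chromosome. With genes in 4 equal groups from the shortest to the longest, the median log2 ratio between knockout-library and control-library melanoma cells was −0.18, −0.03, 0.11 and 0.33, and 180 of the 302 higher genes were in the longest group. T-gated cells ran from −0.21 to 0.46 and macrophage-gated cells from −0.35 to 0.43. Malat1, a nuclear RNA, had 9907 against 6369 CPM in melanoma cells, 14148 against 8578 in T-gated and 21551 against 14065 in macrophage-gated cells. Arfgef3 spans 162 kb, Thsd7a 438 kb and Slc24a4 138 kb, while Gapdh spans 4.75 kb, Car9 6.76 kb and Fdps 8.37 kb. Other named genes ran against this order: Spp1, higher in the knockout library, spans 5.93 kb, and Gm41335, lower in it, 541 kb. The part of this library-wide shift in any gene's ratio was not tested. Ratios of melanoma over immune cells within the control library ran the other way with gene length, with medians of 0.27, 0.15, 0.007 and −0.16. The part of length in those ratios was not tested either.

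**Figure D5:**
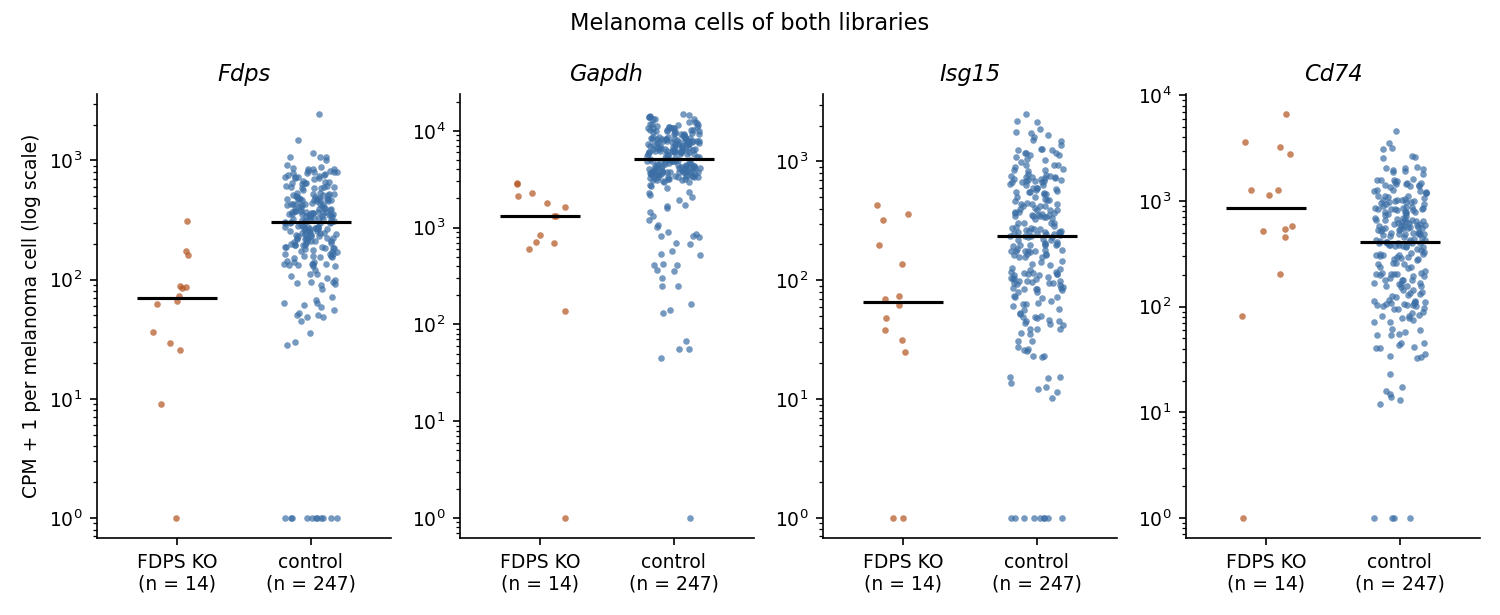
Fdps, Gapdh, Isg15 and Cd74 (CPM plus 1, log scale) in each melanoma cell of the FDPS-knockout (n = 14) and control (n = 247) libraries; bars are medians. The medians are 68.8 and 301 CPM for Fdps, 1315 and 5059 for Gapdh, 64.6 and 233 for Isg15, and 860 and 412 for Cd74, with overlapping cells in each panel.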

How the data were processed

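Single-cell RNA of 2 libraries, 1 from FDPS-knockout and 1 from control B16-F10 tumours, was counted by the authors using Cell Ranger, whose version per the file headers was 7.2.0, against mm10 per the submitters' processing notes. The deposited values are UMI counts per gene and barcode, not normalized, for barcodes the authors kept; whether intronic reads were counted is not stated in these sources, and that choice changes the levels of long genes. From these counts, cells were chosen by the limits given, UMIs were summed over each set of cells and scaled to CPM, and ratios taken as log2 of CPM plus 5 over genes whose mean reached 10 CPM. Counting intervals were exact Poisson or Clopper-Pearson at 95%. Shares of cells used each barcode thinned once to 5000 UMIs. Doublets were the barcodes with the highest Scrublet scores (scanpy 1.11.5) at 0.8% per 1000 barcodes, and none were removed. Free RNA was not removed either, except in an alternative.

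The work ran in Python 3.11.15 with numpy 2.4.6, pandas 2.3.3 and scipy 1.17.1, and the ratios and calls were tested on simulated data. Named genes were the 5 of the rule, up to 5 of each of 27 lists in each direction by ratio, a few fixed genes such as Fdps, Ptprc and B2m, and outside the lists the 15 highest and 5 lowest; other named genes of the lists and those in the knockout-library comparison were chosen after their values were seen. The cells and the lists were chosen with earlier results of these data known. Gene positions are from GENCODE on GRCm38, matched by gene ID for 32158 of 32285 genes, and promoters from RefSeq. A few genes of the lists and of the 15 highest are not reported here.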

Additional observations from a re-analysis of the deposited data

Results flagged for a closer look

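Spp1 was 3.25 higher on the log2 scale in melanoma than in immune cells of the knockout library and lower, at −3.89, in the control library. The libraries gave opposite directions for the same comparison, and the difference was not tested. Both sides of the ratio differed: Spp1 had 197 CPM in melanoma cells of the knockout library and 15.8 in the control. In macrophage-gated cells it had 9.89 and 394. The control melanoma level was 5.22% of its immune level, near that of leukocyte RNA in these cells. In the knockout library 9 of the 14 melanoma cells had a Spp1 UMI and 27.6% of its UMIs came from 1 cell.

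In the control library 498 barcodes with at least 0.5% pigment UMIs lie outside the 247 melanoma cells, so they enter no comparison. Of these, 387 had under 5000 UMIs and 111 had enough UMIs but 10% or more mitochondrial ones. The knockout library held 10 such barcodes.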

How the results depend on the processing

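The counts of genes 2-fold higher or lower in melanoma than in immune cells stayed within 1.5 times under each alternative run. Of those calls 45.8% were higher; it was 40.8% with median-ratio scaling, 53.7% against T-gated cells and 55.7% with a looser T gate (more Cd3 than C1q UMIs), a gate chosen after seeing the data. A pigment share of at least 2% left 3 knockout-library and 40 control-library melanoma cells; the share with Mki67 or Top2a was then 32.5%, genes apart between high-pigment and low-pigment cells numbered 397 in place of 87, Fdps between the libraries was −1.12 in place of −2.05, and 687 genes were higher and 672 lower in place of 302 and 182. Mitochondrial UMIs under 5% left 5 knockout-library cells, with Fdps at −2.97 and 637 genes higher. With no mitochondrial limit 140 genes differed between high-pigment and low-pigment cells. Weighting cells equally gave 498 higher and 286 lower genes between the libraries. Without thinning the Mki67 or Top2a share was 87.9% and the Ptprc share 47.4%; the Ptprc share was 2.75% in cells with under 0.1% leukocyte genes and 3.16% without Scrublet-marked cells. The cause of these shifts was not tested, beyond the smaller number of cells.

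Directions turned mainly with the immune cells compared. Medians of the interferon-stimulated, nucleic-acid sensing, endothelial and heat-shock lists were −0.51, −0.38, −0.50 and −0.91 against all immune cells. They were 0.97, 0.14, 1.63 and 0.20 against T-gated cells. Against T-gated cells the medians of the dedifferentiation, class II, secreted and myeloid lists were 0.47, 1.48, 0.40 and 0.29, and single genes were Pid1 0.17, Thbs1 0.86, Cxcl9 1.26, Oasl1 0.73, Axl 0.61, Irf7 0.0088, Lyz2 0.17, Ccl2 0.40, Ccl6 0.12, Ciita 0.65, H2-Ab1 1.005, H2-Aa 1.79, H2-Eb1 1.26, Cd74 1.70, Cd274 0.27 and Ifit2 0.87. With the looser T gate the dedifferentiation and class II medians were 0.62 and 1.04, and Cxcl9 was 0.32, Oasl1 0.51, Axl 0.62, Irf7 0.080, Ciita 0.48, H2-Ab1 0.77, H2-Aa 1.45, H2-Eb1 0.84, Cd74 1.53, Cd274 0.42 and Ifit2 0.996. Against macrophage-gated cells the T and NK median was 0.83. Cck, whose UMIs come mostly from 1 cell, was −0.021 with mitochondrial UMIs under 5%. No paired analysis was possible because each group has 1 library.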

Other observations

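Levels by chromosome were not part of any comparison above. The median log2 ratio of melanoma over immune cells in the control library was 0.64 over 499 genes of chromosome 6 and 0.51 over 380 genes of chromosome 15, while the other chromosomes lay between −0.21 and 0.24. In the 14 melanoma cells of the knockout library the same 2 medians were 0.43 and 0.39. Against T-gated cells of the control library they were 0.70 and 0.50, and against macrophage-gated cells 0.75 and 0.63. Mitf, Met, Gapdh, Tpi1 and Ndufa4 are on chromosome 6, and Sox10, Slc45a2, Sqle and Gm41335 on chromosome 15.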
